A study of Mus musculus with 229 samples.

Results

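The cells described here are those with RNA of Pdgfra in a mouse tumour labelled GBM and in newborn mouse cortex. A cell entered when it had at least 1 unique molecular identifier (UMI, a tag that marks 1 captured RNA molecule) of Pdgfra and none of 7 other genes. Those genes were C1qa, C1qb, C1qc and Tyrobp of microglia and macrophages, Cldn5 and Flt1 of endothelial cells, and Gad1 of GABAergic neurons. The rule kept 1777 of 4955 tumour cells (35.9%) and 622 of 3184 cortex cells (19.5%), together 2399 of the 15008 droplet cells of the series. They were selected on the measured values of these 8 genes.

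Pdgfra encodes a receptor tyrosine kinase for platelet-derived growth factor (PDGF). In the brain it marks oligodendrocyte precursor cells (OPCs), which divide under PDGF, migrate, receive synapses from neurons and mature into the cells that make myelin. Gliomas often keep OPC genes while the brakes on the cell cycle are lost, so an OPC of the growing cortex is a natural normal cell to set beside a glioma cell with the same receptor.

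The series has 229 samples in 10 groups and combines single-cell RNA profiles of cortex and tumours with ATAC-seq, a map of open chromatin. The tumour library was made by Drop-seq, a droplet method, from glioblastoma tissue of the cerebral cortex region at dpi 25. The labels do not expand dpi, and they give neither the genotype nor the driver of the tumour, nor a sort. The tissue was digested with TrypLE and collagenase and the suspension was treated to lyse red blood cells. The cortex library was made by Drop-seq from P1-3 pups labelled PDGFRa normal and PDGFRa-gfp, in which GFP marks cells using the Pdgfra gene. A cell sorter kept those with GFP and left out dead ones, marked by the dye 7-AAD. GFP protein can outlast Pdgfra RNA, and the sort also held cells of other types. Neither label names animals. A further pair of droplet libraries is given side by side below, a Drop-seq library of hGFAP-GFP cortex at P5-6 (hGFAP normal and hGFAP-gfp, 815 cells) and a 10x library of a tumour at dpi 35 (genotype GBM, 6054 cells). In hGFAP-GFP mice, GFP follows a promoter of human GFAP, which is active in astrocytes and their precursors.

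There was 1 library per side, so tissue, age, sort, digestion and library cannot be told apart, and no test between animals was possible. Each level is the mean over cells of the UMIs per 10000 UMIs of a cell. Each comparison is the log2 ratio of these levels, tumour over cortex. The 95% intervals given are exact intervals of the ratio of summed UMIs. They cover counting error only.

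A Pdgfra UMI was found in 2019 tumour cells (40.7%) and 664 cortex cells (20.9%). Cells that should lack the gene set the background. Among 338 tumour cells with at least 5 UMIs of the C1q genes and Tyrobp, 6.51% had a Pdgfra UMI (Clopper-Pearson 95% interval 4.12% to 9.69%, median depth 2175 UMIs). Among 164 cortex cells with at least 2 Gad1 UMIs the share was 4.88% (2.13% to 9.39%, median depth 2337 UMIs). Setting the 7 genes to 0 took out 242 tumour cells, of which 193 had exactly 1 UMI of these genes, and 42 cortex cells, of which 38 had Gad1. Flt1 is not a row of the cortex table and could not be applied there.

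Most of the chosen cells sat at the threshold. In the tumour 1146 had 1 Pdgfra UMI, 405 had 2 and 226 had 3 or more. In the cortex the numbers were 350, 158 and 114, and the highest count was 8 in both libraries. Just outside the threshold were 2274 tumour and 2004 cortex cells with no Pdgfra UMI and none of the 7 genes. The level of Pdgfra itself, which chose the cells, was 7.11 in the tumour and 7.71 in the cortex. The tumour cells had a median of 2191 UMIs (1068 to 6599) and the cortex cells 2671.5 (638 to 12422), with 4383514 and 1883159 UMIs in all. Mitochondrial genes took 6.55% of UMIs in the tumour and 3.24% in the cortex, and ribosomal protein genes 10.1% and 13.8%. No cell barcode was shared between any of the 4 droplet libraries.

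Markers of the oligodendrocyte lineage matched the name on both sides. Olig1, a transcription factor of the lineage, had a UMI in 87.1% of the tumour cells (85.5% to 88.6%) and 88.9% of the cortex cells (86.2% to 91.3%). In the cells of other types named above the shares were 14.2% in the tumour and 12.2% in the cortex. Olig2, its partner, was found in 64.9% and 66.9%, and Sox10, a factor needed for oligodendrocytes to mature, in 29.7% and 33.9%. After 1000 UMIs were drawn from each cell with as many (1777 tumour and 557 cortex cells), the shares were 62.9% and 78.6% for Olig1, 39.4% and 40.6% for Olig2 and 13.6% and 16.3% for Sox10. At equal depth the intervals of the 2 sides overlapped for Olig2 and Sox10, and those of Olig1 did not.

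Markers of other cells were scarce. No endothelial and no mural marker of the 9 and 10 listed reached the filter used below, and of 12 microglial markers 1 did. The summed level of the microglial markers was 0.88 in the tumour cells and 0.22 in the cortex cells, and that of the endothelial markers 0.11 and 0.20. Lyz2, a lysozyme gene of macrophages, had a UMI in 2.03% of the tumour cells and in 88.5% of the C1q and Tyrobp cells. The defining markers of myeloid and endothelial cells were thus near 0, which the rule itself favours. Of 9 fibroblast markers 1 passed the filter, Col1a2, which was lower in the tumour with a log2 ratio of -3.37. The summed level of the fibroblast markers was 0.245 in the tumour cells and 0.795 in the cortex cells. Further exceptions were Ttr, neuron genes and haemoglobin, described with the lists they belong to.

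Of 18823 genes in both tables, 6472 passed a filter of 0.25 per 10000 and 50 UMIs on the higher side. Of these 1543 (23.8%) differed 2-fold or more. The tumour cells were higher for 728 genes (11.2%) and lower for 815 (12.6%), and the median log2 ratio was -0.0031. These shares are the background for the counts of each gene list below. Of the genes that differed 2-fold, 47.2% were higher in the tumour. That split moved to 61.2% among cells with at least 2 Pdgfra UMIs and to 71.1% after thinning to 1000 UMIs, where the fewer cortex UMIs left fewer genes past the 50 UMI minimum. With the mean filter alone it was 43.9% at full depth and 44.5% thinned.

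**Figure D1:**
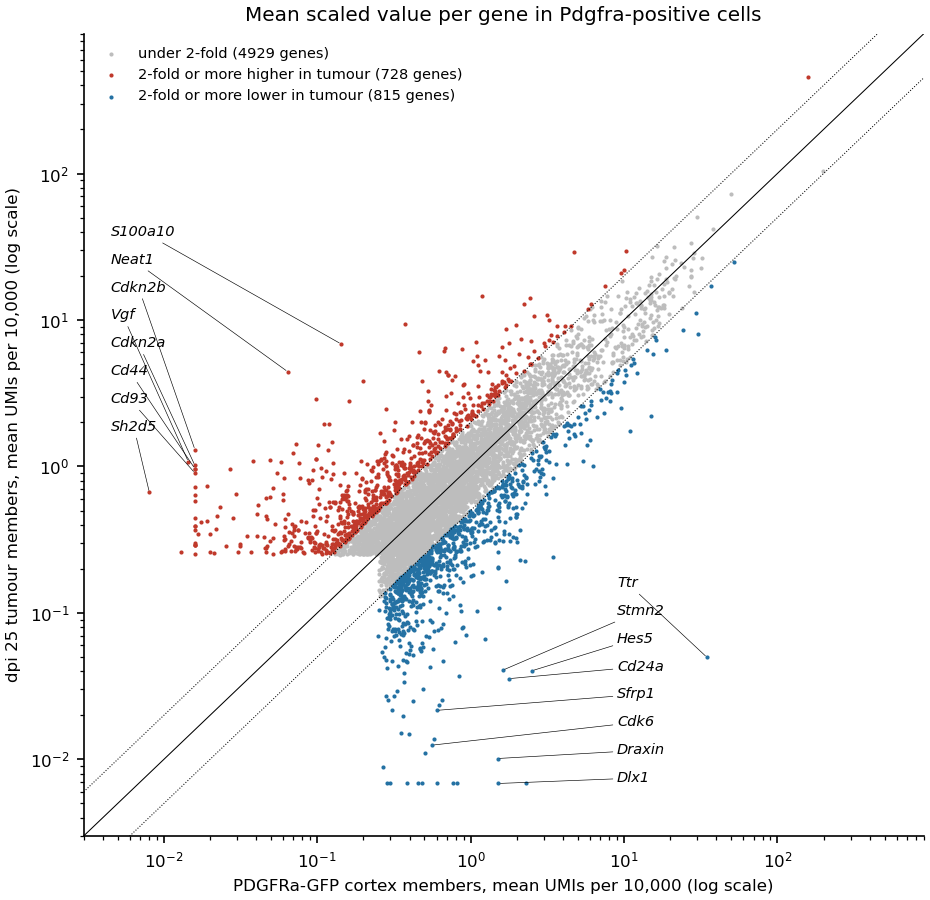
Mean UMIs per 10000 of each of the 6472 genes that passed the filter, PDGFRa-GFP cortex cells on the x axis and dpi 25 tumour cells on the y axis, both on log scales. Red points are 728 genes 2-fold or more higher in the tumour, blue points 815 genes 2-fold or more lower, dotted lines mark 2-fold, and genes with under 3 UMIs on 1 side are drawn at the level of 3 UMIs. The genes named at the left are nearly absent from the cortex cells, and those named at the lower right from the tumour cells.

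The 15 genes furthest above the cortex were Sh2d5, Cdkn2b, Vgf, Neat1, Cdkn2a, Cd44, Cd93, S100a10, Spp1, Clic5, Timp1, Hhipl2, Serpina3n, Cldn11 and Sdc4. Cdkn2a and Cdkn2b encode inhibitors of the kinases that start the cell cycle. Cdkn2b stood at 1.30 in the tumour with 539 UMIs and had no UMI in the cortex cells. With 3 UMIs taken as the floor of the library, it was 81.8-fold higher in level. The exact interval of its summed UMIs starts at a log2 ratio of 5.97. Cdkn2a stood at 1.02 with 451 UMIs against none, 63.7-fold higher in level by the same floor. Its interval of summed UMIs starts at 5.71. Each was seen in about the same share of tumour cells, 19.5% for Cdkn2b and 20.1% for Cdkn2a, against 2.37% and 2.96% of the C1q and Tyrobp cells.

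S100a10, a partner of annexin A2 at the cell membrane, had the widest reach of the 15. It was found in 73.8% of the tumour cells and 4.18% of the cortex cells (46.9% and 1.08% at 1000 UMIs), at levels of 6.86 and 0.143, a log2 ratio of summed UMIs of 5.37 (4.87 to 5.92). The long noncoding RNA Neat1, which builds nuclear paraspeckles, stood at 4.43 and 0.0642. Cldn11, a tight junction protein of myelin, was found in 42.7% and 3.05%, at 2.87 and 0.0976. Of the C1q and Tyrobp cells 20.4% had S100a10 and 4.73% had Cldn11, below the tumour shares.

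The remaining 10 were found in 11.4% to 18.1% of tumour cells. Cd44, a receptor for hyaluronan, stood at 0.965 with 408 UMIs against 2 UMIs in the cortex. Its log2 ratio of summed UMIs was 6.45 (4.59 to 9.50). Vgf, a neuropeptide precursor, stood at 1.08 against 0.0144, with 450 and 3 UMIs. Timp1, an inhibitor of matrix metalloproteinases, stood at 0.734 against 0.0191 and Sdc4, a heparan sulfate proteoglycan, at 1.10 against 0.0382. Some of these genes also belong to other cells of the tumour. Spp1 (osteopontin) had a UMI in 11.4% of the Pdgfra cells and 92.6% of the C1q and Tyrobp cells, and Cd44 in 18.1% and 13.3%. The part of RNA from other cells in the Spp1 level was not tested.

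Among the 15 genes furthest below the cortex were Ttr, Dlx1, Draxin, Hes5, Cd24a, Cdk6, Stmn2, Sfrp1, Kif21a, Npas1, Chgb, Miat, Zfp36l1 and Fstl5. Draxin, a guidance factor that repels axons, stood at 0.0101 in the tumour with 5 UMIs and at 1.504 in the cortex with 255. Its log2 ratio of summed UMIs was -6.89 (-8.53 to -5.65). Hes5, a target of Notch, stood at 0.0403 and 2.52, with 15 and 565 UMIs. Cdk6, a kinase driven by D-type cyclins, stood at 0.0125 and 0.563, and Sfrp1, a secreted inhibitor of Wnt, at 0.0216 and 0.604. Zfp36l1, which speeds the decay of AU-rich mRNAs, was lower by a smaller ratio but was found in 48.9% of the cortex cells against 5.35% of the tumour cells (27.6% and 2.31% at 1000 UMIs). In the Gad1 cells of the cortex its share was 2.44%.

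Ttr stood apart. It encodes transthyretin, a product of the choroid plexus, stood at 34.7 in the cortex cells against 0.0498 in the tumour, and had a UMI in 62.2% of the cortex cells. It also had a UMI in 64.6% of the Gad1 cells of that library, so the share does not set the Pdgfra cells apart. Among cells with Olig1, Olig2 or Sox10 its log2 ratio was -7.52, against -9.45 in all chosen cells. What part of the level is background RNA and what part comes from cells rich in Ttr was not tested. Cortex cells with 1 Pdgfra UMI had a Ttr level of 57.7, those with 2 had 5.19 and those with 3 or more 5.17. The 235 cortex cells with no Ttr UMI gave 849 genes higher and 328 lower, so that 72.1% of the 2-fold genes were higher in the tumour.

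Genes of division were higher in the tumour cells, more so in G2 and M phase than in S phase. Of the S phase genes, 15 of 17 passed the filter and 5 were 2-fold higher in the tumour, with a median log2 ratio of 0.79. Of the G2 and M phase genes all 19 passed and all 19 were 2-fold higher, where 11.2% of all tested genes were, with a median of 2.02 against -0.0031 over all tested genes. Ratios of the G2 and M genes ran from 1.16 for Top2a, which untangles DNA, to 3.21 for Plk1, a kinase of mitotic entry. Mki67, the gene of the Ki-67 protein, stood at 5.67 in the tumour and 1.52 in the cortex. It was found in 51.3% and 16.2% of cells (34.6% and 9.87% at 1000 UMIs). Ccnb2, a cyclin of mitosis, stood at 3.82 and 0.482, and Hmmr, a spindle protein, at 4.41 and 0.693. Among S phase genes Rrm2, a subunit of ribonucleotide reductase, stood at 3.18 and 0.749, while Mcm5, part of the replicative helicase, stood at 0.467 and 0.460. With UMIs summed over cells the count of 2-fold S phase genes was 1 in place of 5, so the S phase difference depends on how cells are weighted.

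Genes of G2 and M phase often share CCAAT boxes in their promoters, the site of the factor NF-Y. The 250 bases before the start of a gene, from RefSeq on GRCm38.p6, held CCAAT or its reverse complement ATTGG in 14 of the 16 2-fold genes of the list that have a window, beside 33.8% of 32851 windows and 41.4% of the 4804 tested genes with a window. The promoters of Ccnb2 (chr9:70421555-70421804, minus strand) and Hmmr (chr11:40733438-40733687, minus strand) are shown for their repeated boxes, 3 and 5, with the boxes in capitals and the bases 5′ to 3′ in the direction of the gene. For both genes the RefSeq window that holds these bases overlapped an open chromatin interval of PDGFRa-GFP cells. A match is a description of the letters, not evidence of binding.
Ccnb2: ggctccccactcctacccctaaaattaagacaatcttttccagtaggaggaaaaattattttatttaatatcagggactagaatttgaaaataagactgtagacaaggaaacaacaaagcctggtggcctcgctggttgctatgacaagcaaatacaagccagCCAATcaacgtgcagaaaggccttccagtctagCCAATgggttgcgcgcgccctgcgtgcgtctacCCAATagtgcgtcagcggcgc
Hmmr: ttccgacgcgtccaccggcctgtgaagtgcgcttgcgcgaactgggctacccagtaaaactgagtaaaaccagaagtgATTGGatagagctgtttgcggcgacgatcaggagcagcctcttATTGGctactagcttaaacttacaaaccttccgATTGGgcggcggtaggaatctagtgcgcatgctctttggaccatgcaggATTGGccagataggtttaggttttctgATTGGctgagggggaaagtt

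Cyclins and inhibitors of the cell cycle were found on both sides of the comparison. Of 11 D-type cyclins, their kinases and inhibitors, 6 were 2-fold higher and 2 lower, with a median of 1.08. The shares over all tested genes were 11.2% and 12.6%. Ccnd1, the cyclin that growth factors induce, stood at 29.3 in the tumour against 4.71 in the cortex, a log2 ratio of summed UMIs of 2.69 (2.59 to 2.80), and was found in 94.8% and 54.3% of cells. Ccnd3 stood at 1.62 and 0.769, and Ccnd2 at 4.66 and 5.98. The inhibitor Cdkn1a (p21) stood at 1.95 and 0.119, and Cdkn2c (p18) at 0.924 and 0.229, beside Cdkn2a and Cdkn2b above. Cdkn1b (p27), which accumulates as OPCs leave the cycle, stood at 1.29 and 1.86, and Cdkn1c (p57) at 0.106 and 0.305. Of the D-cyclin kinases, Cdk4 stood at 4.12 and 5.51 while Cdk6 was nearly absent from the tumour.

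The list of p53 targets, which leaves out Cdkn1a (counted with the inhibitors above), was mixed. Of 12, 5 passed, and 2 were 2-fold higher, where 11.2% of all tested genes were, with a median of 0.96. Ccng1 stood at 0.820 in the tumour and 0.195 in the cortex, and Plk2, a stress-induced polo-like kinase, at 1.26 and 0.281. Mdm2, the ligase that degrades p53, stood at 0.388 and 0.454, and Bax, which opens mitochondria in cell death, at 1.08 and 1.24.

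The growth factor side of the receptor showed smaller differences. Of the PDGF ligands and the other receptor, only Pdgfa passed, at 0.463 in the tumour and 0.278 in the cortex, a log2 ratio of summed UMIs of 0.73 (0.28 to 1.20). Of 11 feedback and target genes of the MAPK pathway that passed, 4 were 2-fold higher and 1 lower, with a median of 0.62. Among all tested genes 11.2% were higher and 12.6% lower. The higher ones were Spry2 (2.30 and 1.02), a brake on receptor signalling, Dusp6 (1.35 and 0.471), a phosphatase of ERK, Ier3 (0.744 and 0.141) and Phlda1 (4.88 and 1.91). The ETS factors of the same pathway did not share this: Etv5 stood at 0.269 and 0.653, Etv4 at 0.375 and 0.734 and Etv1 at 1.10 and 1.11. So MAPK genes did not form 1 block.

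Hypoxia and glycolysis genes were higher in the tumour cells. Of 17 genes measured on both sides 16 passed, and 13 were 2-fold higher and none lower, where 11.2% of all tested genes were higher. The median was 2.34. Ldha, which turns pyruvate into lactate, stood at 8.64 and 1.70, and Aldoa, an enzyme of glycolysis, at 5.23 and 1.04. Bnip3, a mitophagy receptor, stood at 1.47 and 0.125, a log2 ratio of summed UMIs of 3.12 (2.59 to 3.70). Vegfa, the growth factor of blood vessels, stood at 0.936 and 0.114, Slc2a1, the glucose transporter GLUT1, at 0.436 and 0.0616, and Adm (adrenomedullin) at 0.457 and 0.0221. The 3 under 2-fold were Eno1 (3.20 and 2.91), Pfkl (0.341 and 0.271) and Pgam1 (3.32 and 1.70). Ldha was found in 72.0% of tumour and 35.9% of cortex cells, and in 71.9% of the C1q and Tyrobp cells.

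The core letters of the hypoxia response element, ACGTG, or CACGT on the other strand, were in the 250 bases before a start of 9 of the 12 2-fold genes with a RefSeq window, beside 16.6% of 32851 windows and 26.6% of the 4804 tested genes with a window. Bnip3 (chr7:138909507-138909756, minus strand) and Ldha (chr7:46845554-46845803, plus strand) are shown for their 2 and 5 matches on GRCm38.p6. Ldha has 2 windows, of which the one with more matches is shown. Capitals mark the matches, and where ACGTG and CACGT overlap they are counted as 2. For both genes the RefSeq window that holds these bases overlapped an open interval. Adm, with the largest ratio of those with a window, had no match there.
Bnip3: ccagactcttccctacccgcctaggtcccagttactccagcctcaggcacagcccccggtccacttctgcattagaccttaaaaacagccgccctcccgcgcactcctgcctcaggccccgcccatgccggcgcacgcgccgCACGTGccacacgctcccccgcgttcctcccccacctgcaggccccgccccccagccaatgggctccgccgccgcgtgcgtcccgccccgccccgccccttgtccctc
Ldha: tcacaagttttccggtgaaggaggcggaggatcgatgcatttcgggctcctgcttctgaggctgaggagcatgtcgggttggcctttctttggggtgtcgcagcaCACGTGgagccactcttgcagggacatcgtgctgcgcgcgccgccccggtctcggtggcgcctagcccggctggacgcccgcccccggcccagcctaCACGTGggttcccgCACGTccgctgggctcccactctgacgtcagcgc

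Genes of the mesenchymal state of glioma stood furthest above the cortex as a group. Of 16 genes measured on both sides 10 passed, and 9 were 2-fold higher and none lower, where 11.2% of all tested genes were higher. The median was 3.63. Vim (vimentin), an intermediate filament, stood at 12.8 and 2.24 and was found in 88.2% and 35.0% of cells. Lgals1 (galectin-1) stood at 9.41 and 0.375, found in 71.1% and 4.82%. Anxa2, the annexin that S100a10 binds, stood at 0.713 and 0.0512, and Tnfrsf12a, the receptor of the cytokine TWEAK, at 1.29 and 0.117. S100a6 was the exception, at 1.17 and 0.804. Macrophages hold several of these RNAs too: 72.8% of the C1q and Tyrobp cells had Lgals1 and 65.98% had Vim. Among 1153 tumour and 480 cortex cells also without any microglial, endothelial, mural, fibroblast or erythroid marker, 9 of 10 that passed were again 2-fold higher. Over all genes 765 of 5794 tested were higher in those cells. What part of the mesenchymal RNA comes from other cells was not tested.

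The extracellular matrix list had 4 genes past the filter, of which 3 were 2-fold higher and none lower. Igfbp3, which binds insulin-like growth factors, stood at 6.16 and 0.671, found in 64.8% and 13.3% of cells, and Igfbp7 at 0.278 and 0.0461. Sparc, a matrix glycoprotein, stood at 0.815 and 1.26. Of 6 interferon and MHC class I genes that passed, 5 were 2-fold higher and none lower, with a median of 1.29. Both list counts stand beside 11.2% higher over all tested genes. B2m, the light chain of MHC class I, stood at 3.81 and 1.5996, H2-K1 at 0.668 and 0.265 and Ifitm3 at 0.261 and 0.0201. Among cells with Olig1, Olig2 or Sox10 the interferon count was 3 of 5 that passed.

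The lineage factors of OPCs were close on the 2 sides while several of their surface and matrix genes were lower in the tumour. Of 17 OPC genes measured on both sides 15 passed, none was 2-fold higher and 6 were lower, where 12.6% of all tested genes were lower, with a median of -0.53. Olig2 stood at 5.45 and 5.93, a log2 ratio of summed UMIs of -0.01 (-0.11 to 0.10), and Sox10 at 1.62 and 1.94, -0.14 (-0.34 to 0.05). Cspg4, the NG2 proteoglycan of OPCs, stood at 2.17 and 2.74, -0.14 (-0.31 to 0.03). Those intervals include no difference in summed UMIs. They cover counting error only, and the mean level of each of these genes was lower in the tumour. Olig1 stood at 12.01 and 17.3.

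The lower 6 were Bcan, Matn4, C1ql1, Tnr, Rlbp1 and Cacng4. Bcan (brevican), a proteoglycan of the matrix around cells, stood at 1.005 and 6.23, and was found in 19.5% and 67.2% of cells (9.12% and 38.2% at 1000 UMIs). Matn4, a matrix adaptor, stood at 0.324 and 1.98. C1ql1, a secreted C1q-like protein of synapses, stood at 0.0807 and 0.886, and Cacng4, which escorts AMPA receptors, at 4.56 and 10.1. Ptprz1, a receptor phosphatase of OPCs, was just under 2-fold at 4.12 and 8.14.

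Genes of primitive OPCs, an earlier progenitor state, were mostly lower. Of 10 genes 7 passed, and 5 were 2-fold lower and none higher, where 12.6% of all tested genes were lower. The median was -2.26. Dll3 and Dll1, ligands that act in the Notch pathway, stood at 0.310 and 1.79, and at 0.0588 and 0.487. Hes6 stood at 0.215 and 1.03. Gadd45g, a growth arrest gene, stood at 1.61 and 0.869. Egfr did not reach the filter and had a UMI in 0.563% of tumour and 5.79% of cortex cells. The count of lower genes was 2 of 4 that passed among cells with at least 2 Pdgfra UMIs.

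Genes further along the lineage split in 2. Of the genes of committed oligodendrocytes, 6 passed and 2 were 2-fold lower, where 12.6% of all tested genes were. Gpr17, a receptor of the committed stage, stood at 0.344 and 1.79, and Itpr2 at 0.403 and 1.18, while Bcas1 stood at 2.70 and 2.15 and Fyn, a kinase of process growth, at 2.69 and 2.02. Of the myelin genes 5 passed and 4 were 2-fold higher, where 11.2% of all tested genes were, with a median of 1.98. Mbp, a main protein of myelin, stood at 1.31 and 0.333. Mobp stood at 0.442 with no UMI in the cortex. Cnp, which OPCs already use, stood at 1.05 and 1.38. Mbp had a UMI in 18.9% of the tumour cells and in 16.9% of the C1q and Tyrobp cells, so its share lies close to the background. Cldn11 did not follow this, with 42.7% and 4.73%.

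Receptors and channels of OPCs were lower in the tumour cells. Of 15 genes 11 passed, and 8 were 2-fold lower and 1 higher, with a median of -1.28. Among all tested genes 12.6% were lower and 11.2% higher. Gria2, the subunit that keeps AMPA receptors closed to calcium, stood at 6.25 and 14.1. Grik2, a kainate receptor subunit, stood at 0.0761 and 0.615, and Kcnd2, a potassium channel, at 0.642 and 1.58. Gria3 stood at 1.68 and 1.67. Cacng5 was the higher one, at 0.305 and 0.0785. Genes of cholesterol and fatty acid synthesis, which OPCs raise before myelination, had 14 members past the filter, of which 6 were 2-fold lower and none higher, with a median of -0.90. Srebf2, the regulator of the pathway, stood at 0.242 and 0.689, and Fdps, an enzyme of the pathway, at 0.360 and 1.12, while Sqle stood at 0.839 and 0.816.

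The Notch pathway differed by member. Of 16 genes 10 passed, and 8 were 2-fold lower and none higher, where 12.6% of all tested genes were lower. The median was -2.14. Beside Hes5 and the ligands, Nrarp, a target and brake of Notch, stood at 0.0779 and 0.314, and Rbpj, its DNA-binding partner, at 0.225 and 0.505. The receptor Notch1 stood at 0.753 and 0.842, and Hes1, another target, at 1.34 and 0.938. After thinning to 1000 UMIs 5 genes passed and 3 were lower, and Mfng rests on 2 tumour UMIs. Dll1, Dll3 and Mfng are counted in the primitive OPC list too.

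Radial glia genes went both ways. Of 9 that passed, 3 were 2-fold higher, namely Tnc (tenascin-C, 1.12 and 0.0977), Hopx (0.647 and 0.0597) and Nes (nestin, 2.96 and 1.34). The 4 lower ones were Ednrb, the endothelin receptor B (2.19 and 15.03), Fabp7, a fatty acid binding protein (24.9 and 51.9), Pax6 (0.0762 and 0.430) and Mfge8 (0.488 and 1.21). Sox2 stood at 3.20 and 2.32. Ednrb was found in 34.6% of tumour and 81.0% of cortex cells, a log2 ratio of summed UMIs of -2.67 (-2.78 to -2.56).

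Of 8 astrocyte markers that passed, 1 was higher (Atp1b2, 0.923 and 0.435) and 1 lower (Sox9, 0.763 and 2.63), and Aqp4, the water channel of astrocytes, had a UMI in 0.732% of the tumour and none of the 622 cortex cells (upper bound 0.591%). Of 9 neuron and neuroblast markers that passed, 7 were 2-fold lower and 1 higher, where 12.6% of all tested genes were lower. The median was -2.54. The higher one was Gap43, a growth cone protein that glia also make, at 7.24 and 2.46. The cortex values of Dlx1 (1.52, against 2 UMIs in the tumour) and Stmn2 (1.62 and 0.0407) stood beside those of neurons. Of Gad1 cells in that library 84.8% had Dlx1 and 89.6% had Stmn2, against 15.3% and 15.9% of the Pdgfra cells. Stmn2 stood at 2.28, 0.80 and 0.72 in cortex cells with 1, 2 and 3 or more Pdgfra UMIs. What part of these differences comes from neurons in the cortex set was not tested.

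The remaining lists were short. Hmga2, a chromatin protein of fetal tissue, stood at 1.13 in the tumour and 0.0983 in the cortex, and Myc at 0.905 and 0.150. Igf2 had 1 UMI in the tumour. Ezh2, the methyltransferase of Polycomb, stood at 2.31 and 2.81. Of 7 immediate early and stress genes, which dissociation can raise, 1 was 2-fold lower (Egr1, 3.39 and 6.98) and none higher, with a median of -0.43. The 4 erythroid genes that passed were all higher in the tumour cells, with a summed level of 2.08 against 0.34. Hbb-bs had a UMI in 7.26% of the tumour Pdgfra cells and 6.21% of the C1q and Tyrobp cells. Among 1526 and 589 cells without erythroid UMIs the counts over all genes were 715 higher and 785 lower. Of 104 ribosomal protein genes that passed, 21 were 2-fold lower and 1 higher, where 12.6% of all tested genes were lower. The median was -0.56.

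**Figure D2:**
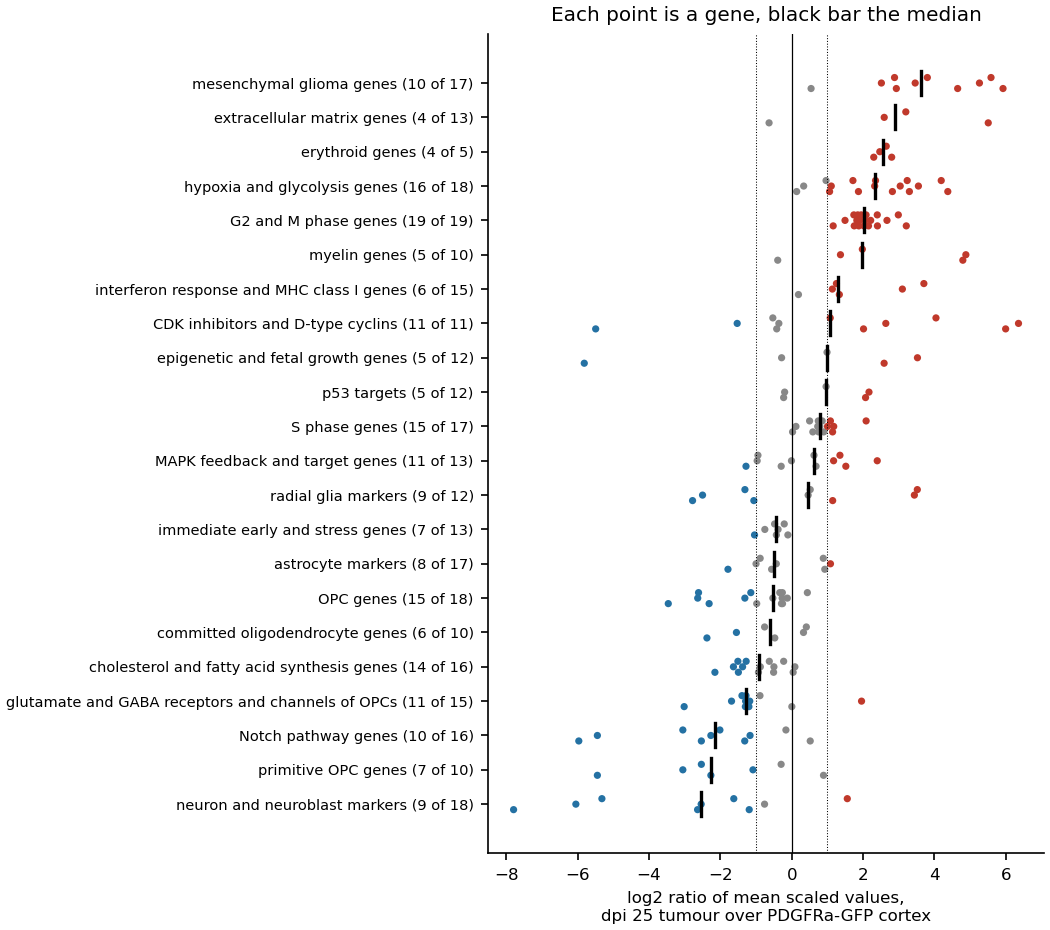
Log2 ratio of mean scaled values, tumour over cortex, on the x axis for each gene that passed the filter, by gene list on the y axis (genes that passed of genes listed), with a black bar at the median of each list with at least 4 such genes and dotted lines at 2-fold. All 19 G2 and M phase genes lie right of 2-fold, the mesenchymal list has a median of 3.63 and the Notch list one of -2.14.

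The lists were also summed per cell, after drawing 1000 UMIs from each of 1777 tumour and 557 cortex cells. OPC genes gave a mean of 4.19 UMIs (SD 2.43 over cells) in the tumour and 7.11 (SD 3.86) in the cortex, and 2.64% and 3.95% of cells had none. Nearly every cell on both sides thus held a UMI of the OPC list. The list sums were not computed in cells of other types, so background RNA is not set apart. G2 and M phase genes gave 6.40 (SD 6.52) and 1.62 (SD 3.87). In the tumour 21.5% of the 1777 cells had none (19.6% to 23.5%) and 853 had 5 or more, while in the cortex 67.5% had none (63.4% to 71.4%) and 68 of 557 had 5 or more.

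Few tumour cells lacked a UMI of the mesenchymal list. Mesenchymal genes gave 3.48 (SD 2.35) and 0.37 (SD 0.835), and 6.08% of tumour cells had none against 73.8% of cortex cells. Hypoxia and glycolysis genes gave 3.39 (SD 3.66) and 1.21 (SD 1.20). Their median was 2 in the tumour and 1 in the cortex, but 24.3% of tumour cells had 5 or more against 1.26%, with a highest value of 27 against 6. The hypoxia list was thus uneven, with a long upper end in the tumour. MAPK genes gave 1.36 (SD 1.38) and 0.846 (SD 1.07).

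**Figure D3:**
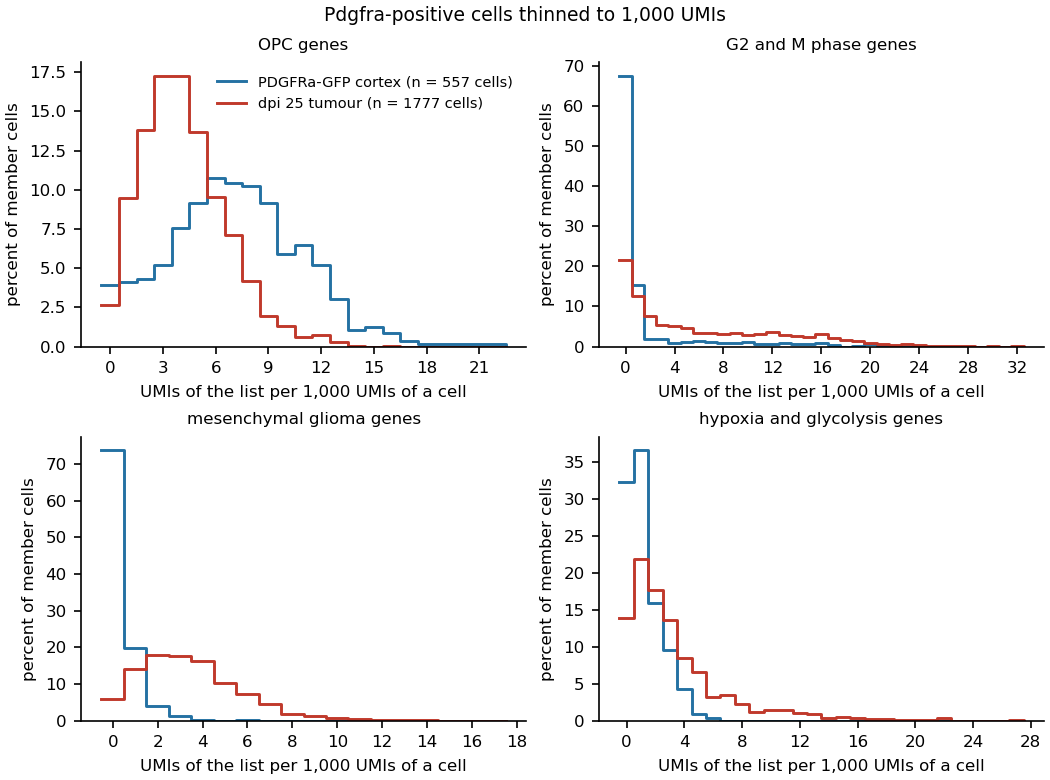
Share of cells (y axis, percent) by the number of UMIs of a gene list in 1000 UMIs of the cell (x axis), for 1777 tumour and 557 cortex cells. The mesenchymal list has 73.8% of cortex cells and 6.08% of tumour cells at 0, and the OPC list overlaps widely.

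Cells without sign of G2 or M phase were also compared. Among 244 tumour and 334 cortex cells with no UMI of the G2 and M phase genes, all 7 mesenchymal genes that passed were 2-fold higher, 8 of 9 hypoxia genes were, and 5 of 13 OPC genes were lower. Over all genes 271 were higher and 441 lower there, of 3004 tested.

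Within each library, the cells were set beside those that failed the threshold. In the tumour, some genes stood nearly level and others did not. Olig1 stood at 11.4 in cells with 0 Pdgfra UMIs and at 12.03, 11.6 and 12.7 in those with 1, 2 and 3 or more. Cd44 stood at 0.883, 0.999, 0.938 and 0.835, and Ccnd1 at 26.9, 28.96, 29.004 and 31.8. Mki67 stood at 3.97, 5.198, 5.98 and 7.50, Cenpf at 6.21, 8.30, 10.3 and 11.6, and Cntn1, an adhesion protein, at 4.74, 5.47, 5.64 and 6.79. Mbp went the other way, at 3.58 without Pdgfra and 1.24, 1.19 and 1.87 with it. Deeper cells have a greater chance of a Pdgfra UMI, and the median depth was 1913 UMIs without Pdgfra, 2065 with 1 UMI and 2488 with 2 or more.

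In the cortex, the OPC genes compared this way were higher in cells with a Pdgfra UMI than without, and not all rose further with more UMIs. Olig1 stood at 6.44 without a Pdgfra UMI and at 15.95, 18.8 and 19.5 with 1, 2 and 3 or more. Cspg4 stood at 0.580, 2.12, 3.54 and 3.54, Sox10 at 0.718, 1.76, 2.24 and 2.05, and Bcan at 2.60, 5.35, 7.93 and 6.58. Fabp7, from the radial glia list, stood at 18.2, 44.5, 56.03 and 69.0. Without a Pdgfra UMI, 5 of 14 OPC genes that passed were 2-fold higher in the tumour and 4 lower, while 10 of 10 mesenchymal, 13 of 15 hypoxia and 6 of 19 G2 and M phase genes were higher. Over all genes 29.3% of 6637 tested differed 2-fold in those cells, 14.2% higher in the tumour and 15.1% lower. These cells come from the same libraries as those with Pdgfra, so they are no second sample.

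**Figure D4:**
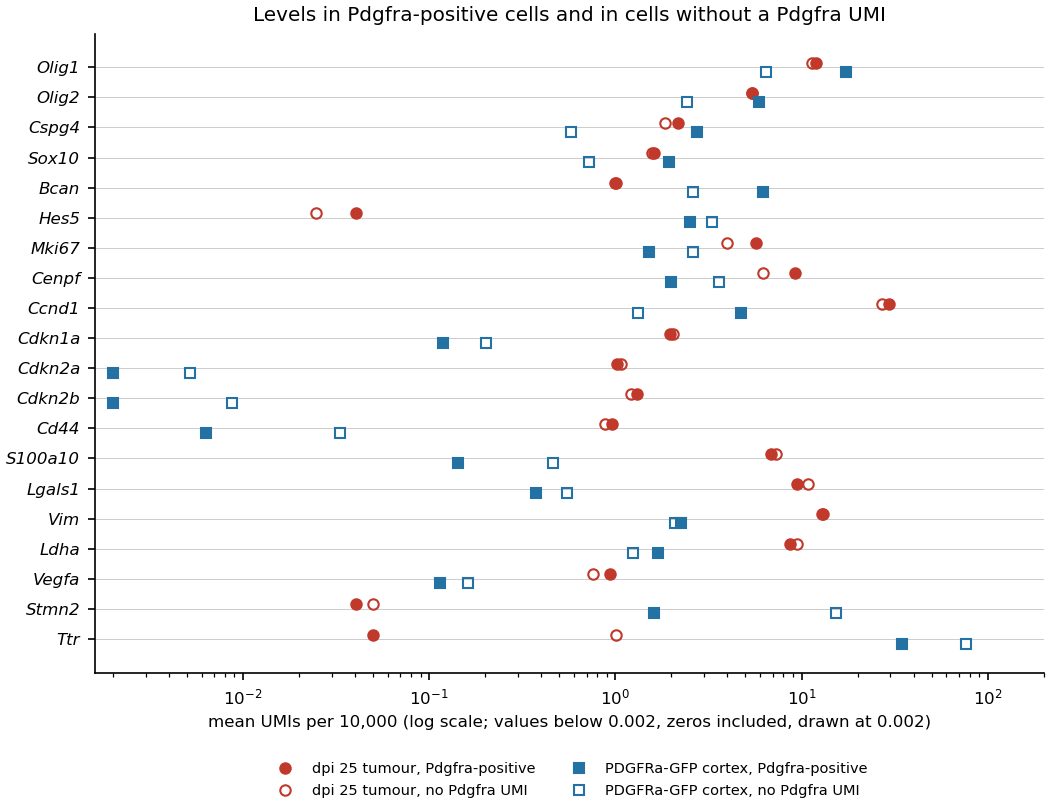
Mean UMIs per 10000 of selected genes in cells with and without a Pdgfra UMI in the tumour and the cortex libraries. The x axis is on a log scale, filled points are cells with Pdgfra, and values of 0 are drawn at the left edge. In the tumour Olig1 lies close (12.01 and 11.4) and Ttr apart, and in the cortex Olig1 lies apart (17.3 and 6.44).

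The same rule was applied to the other droplet libraries, whose age, strain or method differ. It kept 111 of 815 hGFAP-GFP cells and 79 of 6054 dpi 35 cells. In the dpi 35 library it took out 1799 of 1878 cells with Pdgfra, and 1269 of the cells with Pdgfra had C1qa, so its 79 cells are a small remainder. Olig1 stood at 10.3 in the hGFAP-GFP cells and 19.6 at dpi 35, higher in this tumour where it was lower at dpi 25, and Olig2 at 5.17 and 3.60. S100a10 stood at 0.0382 and 4.85, Lgals1 at 0.280 and 2.88, and Vim at 0.989 and 5.60. Cdkn2a had no UMI in the hGFAP-GFP cells and stood at 3.03 at dpi 35, found in 72.2% of cells. Hes5 stood at 0.442 and 0.130 and Dlx1 at 1.86 and 0. From S100a10 on, these genes were on the same side as in the main pair.

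Other genes differed from the main pair in direction or size. The G2 and M phase genes were mixed, with summed levels of 18.8 in the hGFAP-GFP cells and 19.3 at dpi 35. Mki67 stood at 2.06 and 1.26, Cenpf at 3.03 and 2.32 and Top2a at 4.08 and 2.22, while Ube2c, which marks proteins of mitosis for decay, stood at 0.971 and 4.09, Ccnb1 at 0.352 and 1.09 and Cdk1 at 0.352 and 1.05. Tnc stood at 0.578 and 0.129, lower at dpi 35 where it was higher at dpi 25. Igfbp3 stood at 0.300 and 0.452, beside 6.16 at dpi 25. Tnr (0.252 and 1.54) and Pgk1 (1.02 and 0.0973) went the other way than in the main pair. Mbp stood at 0.181 and 13.8.

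The dpi 35 and hGFAP-GFP cells form a pair that shares no library with the main pair. Of 2181 genes tested between them 47.4% differed 2-fold, 14.9% higher at dpi 35 and 32.4% lower. Of 2162 genes tested in both pairs, 181 were 2-fold higher in the main pair and 316 in this one, and 87 were higher in both, which is 48.1% of the first list and 27.5% of the second, where 14.6% of the 2162 genes were higher in the second pair. Lower genes numbered 282 and 698, with 179 in both (63.5% and 25.6%, background 32.3%). There were 17 genes higher in the first pair and lower in the second, and 15 the other way. The second pair sets 10x against Drop-seq, and method and tissue cannot be told apart there.

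With hGFAP-GFP cells as the cortex side for the dpi 25 cells, 1204 of 4830 genes were 2-fold higher (24.9%) and 428 lower (8.86%). Of the lists, 9 of 10 mesenchymal, 14 of 16 hypoxia and 17 of 19 G2 and M phase genes that passed were higher, and 3 of 5 Notch genes were lower. That comparison shares its tumour cells with the main one. Between the cortex sets themselves, hGFAP-GFP at P5-6 over PDGFRa-GFP at P1-3, 10.7% of 4677 genes differed 2-fold, with 2.5% higher and 8.19% lower.

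Open chromatin of PDGFRa-GFP cells at E14.5 and P5, deposited as 1 pooled list of intervals, was set beside the genes. On GRCm38.p6, 42.95% of RefSeq promoter windows overlapped an interval, against 3.19% when the windows were moved by 20000 bases. Gene spans without strand were used for the sets, since the promoter table holds 74.2% of the tested genes, too few for a check by promoter. An interval lay within 500 bases of either end of 89.5% of the tested genes. The share was 88.6% for genes 2-fold higher in the tumour (86.0% to 90.8%), 83.8% for those lower (81.0% to 86.3%) and 90.5% for the rest. Of 82 genes at least 8-fold higher, 79.3% had one (68.9% to 87.4%). The share of the 2-fold higher genes lay near that of all tested genes. The intervals of the lower genes and of the 8-fold higher genes lay below it. All 19 G2 and M phase genes and 14 of 16 hypoxia genes had an interval. The other hypoxia genes, Ldha and Aldoa, had none at an end of the span. In each, the RefSeq window that holds the bases searched for motifs did overlap one. Of the 15 genes furthest above the cortex 11 had one, and Cd93, Spp1, Clic5 and Serpina3n had none. Among the genes lower in the tumour, Ttr and Npas1 had none.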

How the data were processed

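Droplet single-cell RNA sequencing of 1 tumour and 1 cortex library was compared. The Drop-seq tables hold a signal that the authors scaled to 10000 per cell. Their alignment used STAR and mm10, per the submitters' processing notes. Within a cell each value was a multiple of a fixed step, and dividing by it gave back the UMIs, whole within a tolerance of 0.1 for all values. The 10x matrix was deposited as UMI counts, and the submitters' processing notes name Cell Ranger. The cell filter is not given in the sources used here. The labels give 6796 cells for the dpi 25 library and 2000 for hGFAP-GFP, and the tables hold 4955 and 815. Among the tumour genes 25 symbols had turned into dates and were left out of comparisons. Doublets were not called.

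Samples were grouped by title. Member cells were compared by the ratio of mean scaled values, in Python 3.11.15 with numpy 2.4.6, scipy 1.17.1, pandas 2.3.3 and matplotlib 3.10.9. A gene was tested with a mean of at least 0.25 per 10000 and 50 UMIs on the higher side, and called at 2-fold. A side with under 3 UMIs was set to 3. Intervals of ratios are exact conditional and those of shares Clopper-Pearson, both at 95%. Because UMI counting and sampling are all they cover, they are narrower than differences between animals. The procedure was tested on simulated data. Genes named as furthest apart are the 15 largest and 15 smallest ratios with a mean of at least 0.5 per 10000, 100 UMIs and 10% of cells on the higher side, without predicted, mitochondrial, ribosomal protein, haemoglobin, Xist and Tsix genes and the 8 genes of the rule. Members of 28 gene lists are named as well. Some members of these sets are counted but not reported by name here. The cells and lists were chosen with earlier results of these data known. Library depth was 11544233 UMIs in 4955 tumour cells and 8166699 in 3184 cortex cells.

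ATAC intervals were deposited by the authors as 1 pooled MACS2 list, and the submitters' processing notes name the builds mm10 and rn5. Windows and gene spans are from RefSeq on GRCm38.p6, and their overlap with the intervals was taken to place these on mm10. Of the tested genes 98.9% matched a span. The C1 cells were not used here.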

Additional observations from a re-analysis of the deposited data

How the results depend on the processing

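The 30 genes named as furthest apart stayed past 2-fold in their direction under every other setting that kept both libraries and their Ttr cells, and 29 of 30 did so under both replacements of the cortex side. The exception was Ttr, with a log2 ratio of 0.060 against cortex cells without a Ttr UMI, which that choice builds in, and 0.011 against hGFAP-GFP cells. Of 304 counts recomputed, 260 stayed within 1.5 times. Counts follow as 2-fold higher or lower in the tumour, and where the number of genes or cells tested did not change the cause was not tested.

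With UMIs summed over cells 1 S phase gene was higher. With at least 2 Pdgfra UMIs 468 genes were lower, with 2 primitive OPC, 4 Notch and, higher, 3 interferon genes. At 1000 UMIs 301 genes were lower, with 2 primitive OPC, 3 Notch and 4 receptor and channel genes, and 2 interferon genes were higher. The thinned shares of cells were 62.9%, 18.01%, 0.450%, 34.6% and 8.50% for Olig1, Cspg4, Ttr, Mki67 and Cd44 in the tumour, and 78.6%, 22.3%, 35.9% and 9.87% for Olig1, Cspg4, Ttr and Mki67 in the cortex. In cells with Olig1, Olig2 or Sox10, 3 interferon genes were higher. In cells without G2 and M phase UMIs 712 genes differed, 271 higher and 441 lower. Of the lists, 0 G2 and M phase (by construction), 1 S phase, 8 hypoxia and 1 interferon genes were higher there, and 2 primitive OPC, 2 radial glia, 4 Notch and 5 receptor and channel genes lower.

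With microglial, endothelial, mural, fibroblast and erythroid markers also at 0, 3 primitive OPC genes were lower, and without erythroid UMIs again 3. With log2(value + 0.1), 543 genes were lower and 2 S phase genes higher. With no filter on low values 7695 genes differed, 1505 higher and 6190 lower (19.6% higher), with 8 primitive OPC and 13 neuron genes lower and 11 interferon genes higher. In the cortex cells without Ttr UMIs 328 genes were lower, with 2 primitive OPC and 3 Notch genes, and 3 interferon genes were higher. With hGFAP-GFP cells as the cortex side 1204 genes were higher and 428 lower (73.8% higher), with 10 S phase genes higher, and 2 primitive OPC, 2 radial glia, 3 Notch, 4 receptor and channel and 2 cholesterol genes lower. The choices of Ttr, hGFAP-GFP, erythroid UMIs and the mean filter were made after seeing the data.

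No paired analysis was possible because each side has 1 library. For the same reason there was no replicate to leave out. The lower cortex total, 1883159 UMIs against 4383514, limits genes low in the cortex. A gene with 0 cortex UMIs has a level of up to 0.0159 per 10000.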
